A study of Saccharomyces cerevisiae with 3 samples.

Results

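Budding yeast cells lacking *SPT3* were compared with wild type cells (WT) across the genes that lie outside the chromosome ends. The labels give BY4742 as the background of the *spt3Δ* strain, of the *spt8Δ* strain and of WT, and state that each deleted gene had been replaced with a KanMX cassette. The cultures (5 mL of YPD, a rich glucose medium, at 30 °C) were harvested in exponential growth at an optical density of 0.7, and 200 ng of total RNA per strain went into the labelled RNA put on GeneChip Yeast Genome 2.0 arrays. There was 1 array per strain, so no difference below has a replicate check, no p-value was computed, and the spread between cultures of a strain is unknown. The members were all 5449 *S. cerevisiae* genes that the array's annotation names, and the measure was the log2 ratio of the *spt3Δ* signal over the WT signal. The signals of *spt8Δ* are given as values only, since both mutants share the WT array.

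Spt3 is a subunit of SAGA, a large co-activator complex that acetylates and deubiquitinates histones and helps to bring the TATA-binding protein (TBP) to promoters. Spt3 and its partner Spt8 form the part of the complex that contacts TBP. SAGA is best known for its role at highly regulated genes, such as those induced by stress or by a missing nutrient, whereas TFIID, the other main route of TBP delivery, is best known for its role at constitutively expressed genes such as those of ribosomal proteins.

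The deleted gene was read first. *SPT3* had a signal of 0.416 in *spt3Δ*, 332 in *spt8Δ* and 288 in WT. The *spt3Δ* value did not reach the array's background, which makes it lower than WT by at least 43.2-fold. The array also carries 1746 fission yeast (*S. pombe*) probe sets, and background was set per array at the signal that 95% of these do not exceed. It was 6.67 in *spt3Δ*, 8.61 in *spt8Δ* and 7.17 in WT. Where only 1 of the *spt3Δ* and WT arrays was above it, a bound is given in place of the ratio, but calls were still made on the ratio. It divides the bright signal by the dim one or, where that is larger, by the background of the dim array. *LYS2* and *URA3*, the lysine and uracil genes that BY4742 lacks, were not above background on any array. The strain also carries deletions in *HIS3* and *LEU2*, yet *HIS3* had 2638 in *spt3Δ*, 1774 in *spt8Δ* and 1589 in WT, and *LEU2* had 18.2 in *spt3Δ*, 34.0 in *spt8Δ* and 9.50 in WT, all above background. Whether these probes lie in the deleted stretches was not tested. *MET17*, which BY4742 keeps, had 7739 in *spt3Δ*, 8377 in *spt8Δ* and 6686 in WT. The lowest signal among the 4 alpha-specific genes was 1109, that of *SAG1* in *spt3Δ*, and the highest among the 7 a-specific genes was 50.7, that of *STE2* in *spt8Δ*. The strain list of the study gives a *MATa* genotype, and the alpha-specific, a-specific and *LYS2* signals fit the BY4742 label, a *MATα* strain.

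Subtelomeric genes, the 8 outermost probed genes on each of 32 chromosome arms, were set aside (256 genes), as were 64 other genes that were not above background in *spt3Δ* or in WT. The study defined subtelomeric genes by distance from the telomere instead, so the sets differ, and genes kept here can be subtelomeric in the study. The remaining 5129 genes were compared, of which 5069 were above background on both arrays, 28 in *spt3Δ* only and 32 in WT only. Their median log2 ratio was 0.17, the middle 50% lay between −0.18 and 0.51, and 1913 of them were below and 3216 above WT. This offset went with signal, since the median was 0.19 to 0.36 in the 4 dimmer of 5 equal bins of signal and −0.15 in the brightest bin. After an intensity-dependent (loess) scaling, the median over all genes compared was 0.017, and medians of gene lists are therefore also given relative to that of all genes compared.

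Calls were made at 2 SD on either side of the mean, the multiple that the study used. The mean log2 ratio over all genes was 0.11 and the SD 0.68, which put the limits at 2.40-fold lower and 2.78-fold higher. These limits were computed here and differ from those of the study, whose lower limit is nearer to WT. By this rule 96 of the 5129 genes were called lower (1.87%) and 36 higher (0.702%). Among genes above background on both arrays, 77 were lower (1.52%) and 27 were higher (0.533%), with medians of 3.19-fold lower and 3.44-fold higher. The other 19 lower and 9 higher calls were made on ratios in which 1 of the signals was not above background. Their bounds can lie inside the limits, as for *ASG7* (at least 1.19-fold lower) and *SPS2* (at least 1.25-fold higher). Called genes in places 9 to 12 from a chromosome end, next to those set aside, were *SUL1*, *GIT1*, *DSE4*, *VMR1*, *DCG1*, *FIT2*, *DAL4*, *HXT14* and *FRE7*. Calls were more frequent at low signal, with 52 lower and 23 higher calls in the dimmest bin against 11 and 1 in the brightest bin. In the plot of log2 ratio against signal, the lowest points above background included phosphate and stress genes and the highest included *SER3*, *SNO1* and sulfur genes.

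**Figure D1:**
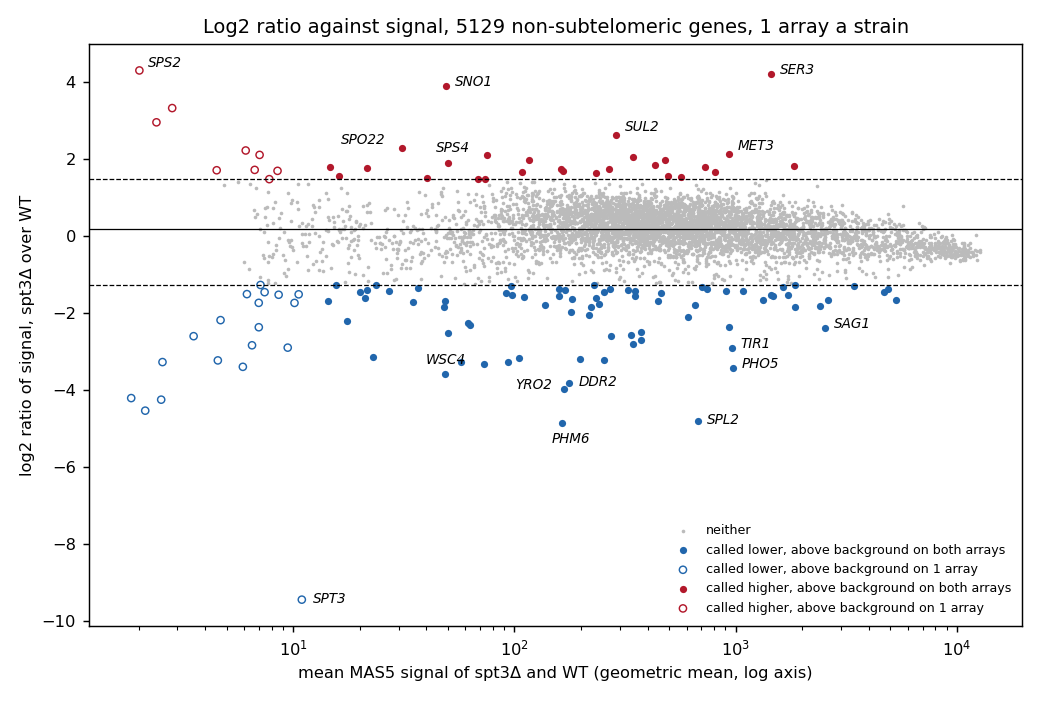
Log2 ratio of *spt3Δ* over WT (vertical axis) against the geometric mean of both signals (horizontal log axis) for the 5129 genes compared, with 1 array per strain. The dashed lines are the limits of −1.26 and 1.47, the solid line is the median of 0.17, and open circles are called genes above background on 1 of the 2 arrays, such as *SPT3*. The spread is widest at low signal, and at higher signals *SER3* stands far above the limits and *SPL2* far below them.

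Genes were grouped into 65 lists by textbook function, which held 1449 of the genes compared, 54 of the 96 lower genes and 18 of the 36 higher genes. Counts of calls in lists stand beside the shares over all genes compared, 1.87% lower and 0.702% higher. At these shares a short list holds few or no calls. The lists with the lowest medians relative to all genes compared were alpha-specific genes (−1.50), daughter cell separation (−1.14), a-specific genes (−0.88), multidrug resistance (−0.80), phosphate supply (−0.79) and hypoxic genes (−0.70). The highest were sulfate assimilation (1.45), TBP and basal transcription factors (0.44) and regulators of methionine genes (0.37). The sign of this relative median was the same in the deposited scaling, after loess, after quantile normalization and with 50 added to each signal for 56 of the 65 lists. In the plot of list medians, the loess value of glycolysis (−0.15) lies nearer to 0 than the deposited one (−0.60), and those of the proteasome (0.42 against 0.25) and of heat shock chaperones (0.34 against 0.10) lie farther from it.

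**Figure D2:**
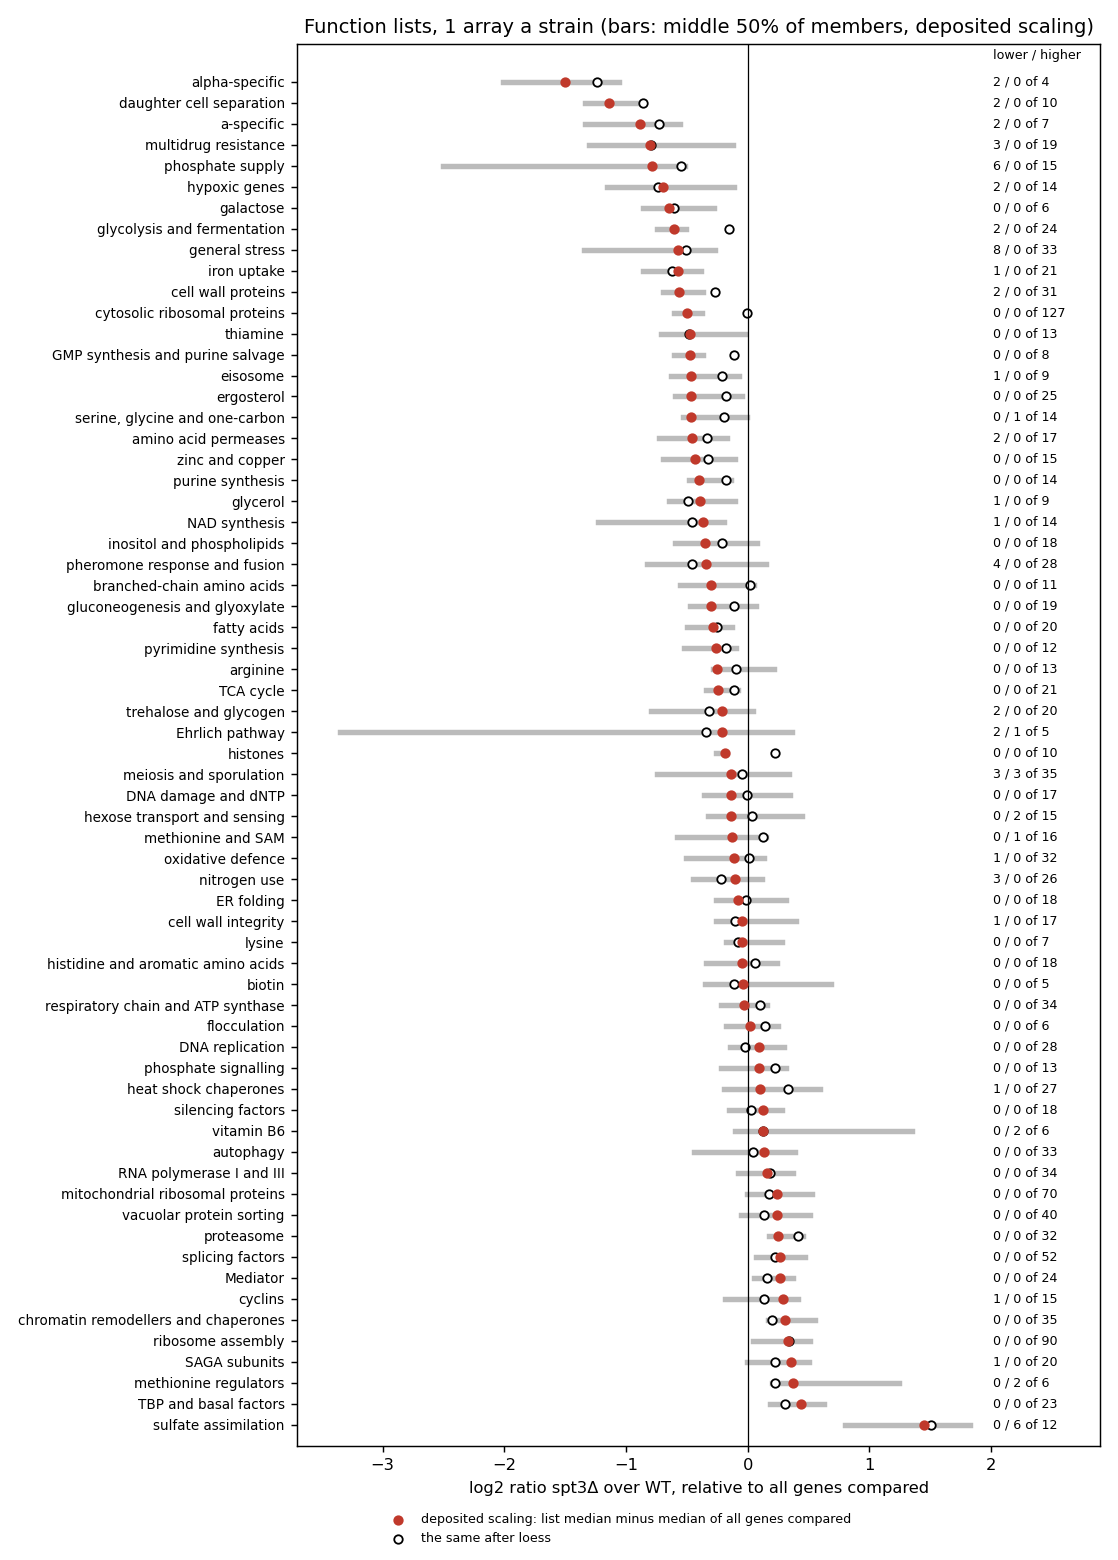
Median log2 ratio of *spt3Δ* over WT of each of 65 function lists minus that of all 5129 genes compared, in the deposited scaling (filled) and after loess (open); bars span the middle 50% of members. Numbers at the right are members called lower, called higher and compared. Sulfate assimilation lies at 1.45 and alpha-specific genes at −1.50, and the cytosolic ribosomal proteins lie at −0.50 and, after loess, at −0.0067.

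Genes that bring in and release phosphate held the largest number of lower calls after the general stress genes. All 15 genes compared were below WT, and the median log2 ratio was −0.62. Of these, 6 were called lower and none higher, against 1.87% lower over all genes compared. *PHM6*, a phosphate-regulated gene of unknown function, had a signal of 30.7 in *spt3Δ*, 109 in *spt8Δ* and 883 in WT, and was 28.7-fold lower in *spt3Δ* than in WT, the lowest ratio above background on both arrays. *SPL2*, an inhibitor of low-affinity phosphate transport, had 129 in *spt3Δ*, 160 in *spt8Δ* and 3560 in WT, a 27.7-fold lower signal in *spt3Δ*. *PHO5*, the main repressible acid phosphatase, had 297 in *spt3Δ*, 341 in *spt8Δ* and 3178 in WT (10.7-fold lower in *spt3Δ*). These 3 genes were bright in WT and remained above background in *spt3Δ*. The constitutive acid phosphatase gene *PHO3* was 5.15-fold lower, with 413 in *spt3Δ*, 565 in *spt8Δ* and 2128 in WT. *PHM8*, a phosphatase of lysophosphatidic acid and nucleotides, was 4.92-fold lower, with 28.3 in *spt3Δ*, 33.8 in *spt8Δ* and 139 in WT. *GIT1*, a permease for glycerophosphoinositol, was 4.58-fold lower on dim signals of 8.16 in *spt3Δ*, 32.4 in *spt8Δ* and 37.4 in WT, and it was no longer called with 50 added to each signal. It lies 9 genes from the end of the right arm of chromosome III, next to the 8 set aside, and is among the genes near that end that the study followed.

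The other phosphate genes lay within the threshold. *PHO84*, the high-affinity phosphate transporter, had 6135 in *spt3Δ*, 5530 in *spt8Δ* and 9307 in WT, a log2 ratio of −0.60. The vacuolar polyphosphate synthesis genes *VTC1*, *VTC3* and *VTC4* had log2 ratios of −0.62, −0.54 and −0.58, and *VTC2* had −0.14. The vacuolar alkaline phosphatase gene *PHO8* had −0.62, the cyclin-dependent kinase inhibitor gene *PHO81* −0.11, and the glycerophosphocholine phosphodiesterase gene *GDE1* −0.013. The 13 genes of phosphate signalling held no called gene, and their median log2 ratio was 0.27. Transporter, polyphosphate and signalling genes thus differed from WT by less than the acid phosphatases, *SPL2* and *PHM6*. In the plot of phosphate and sulfur genes, the *spt8Δ* signals of *PHO5*, *SPL2* and *PHM8* lie beside those of *spt3Δ*.

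Sulfate assimilation, which takes up sulfate and reduces it to sulfide for methionine and cysteine, was the list with the most higher calls. All 12 genes were above WT and above the median of all genes compared, 6 were called higher and none lower, and the median log2 ratio was 1.62 (1.53 after loess). The sulfate permease gene *SUL2* had a signal of 714 in *spt3Δ*, 376 in *spt8Δ* and 116 in WT, and was 6.17-fold higher in *spt3Δ* than in WT. The other permease gene, *SUL1*, was dim, with 27.4 in *spt3Δ*, 13.3 in *spt8Δ* and 7.93 in WT (3.46-fold higher in *spt3Δ*), and lost its call with 50 added to each signal. *MET3*, the ATP sulfurylase that activates sulfate, had 1952 in *spt3Δ*, 1201 in *spt8Δ* and 443 in WT, and was 4.41-fold higher. Of the steps that follow, *MET14* and *MET16* were ordered in the same way on the arrays, while *MET17* was brightest in *spt8Δ*. The *spt8Δ* signal lay between the others for 26 of the 27 higher genes above background on both arrays. Those genes were picked for *spt3Δ* and WT signals that lie far apart, so this count does not show a graded order. The share over all genes compared was not computed. *MET14*, the adenylylsulfate kinase, had 3434 in *spt3Δ*, 2500 in *spt8Δ* and 973 in WT (3.53-fold higher in *spt3Δ*). *MET16*, the phosphoadenylylsulfate reductase, had 952 in *spt3Δ*, 525 in *spt8Δ* and 241 in WT (3.95-fold higher). The sulfite reductase genes *MET10* and *MET5* had log2 ratios of 1.46 and 1.33, just inside the limit of 1.47.

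*MET2*, the homoserine acetyltransferase that makes the acceptor of sulfide, had 704 in *spt3Δ*, 332 in *spt8Δ* and 168 in WT, and was 4.18-fold higher. *MET17*, which joins sulfide to that acceptor, had a log2 ratio of 0.21 on signals that were among the brightest of the list. Siroheme is the cofactor of sulfite reductase, and its genes *MET1* and *MET8* had log2 ratios of 0.99 and 0.92. Of the 6 regulators of these genes, *MET28* (231 in *spt3Δ*, 99.1 in *spt8Δ* and 58.8 in WT) was 3.92-fold higher and *MET32* (194 in *spt3Δ*, 90.3 in *spt8Δ* and 61.0 in WT) was 3.17-fold higher. Both encode factors that act with the activator Met4. *MET4* itself had a log2 ratio of 0.43, the related factor gene *MET31* 0.35, the ubiquitin ligase subunit gene *MET30* 0.67 and the DNA-binding partner gene *CBF1* 0.039.

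The list of methionine and S-adenosylmethionine genes held 16 compared genes with 1 call and a median log2 ratio of 0.041. The called gene was *STR3*, a cystathionine beta-lyase, with 490 in *spt3Δ*, 274 in *spt8Δ* and 147 in WT (3.33-fold higher in *spt3Δ*). *MET6*, the methionine synthase, had 0.013, *CYS3*, of cysteine synthesis, 0.040, and *SAM1*, an S-adenosylmethionine synthetase, −0.53 on the log2 scale. The uncalled genes *STR2* and *MUP3* were higher, at 0.83 and 0.76. The relative median of this list was −0.13 in the deposited scaling and 0.13 after loess. Higher calls were thus made for 6 of 12 genes of the sulfate assimilation list (*MET2* among them) and for 2 of 6 regulators. In the methionine and S-adenosylmethionine list it was 1 of 16 genes, and this difference between lists was not tested. Over all genes compared, 0.702% were called higher.

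**Figure D3:**
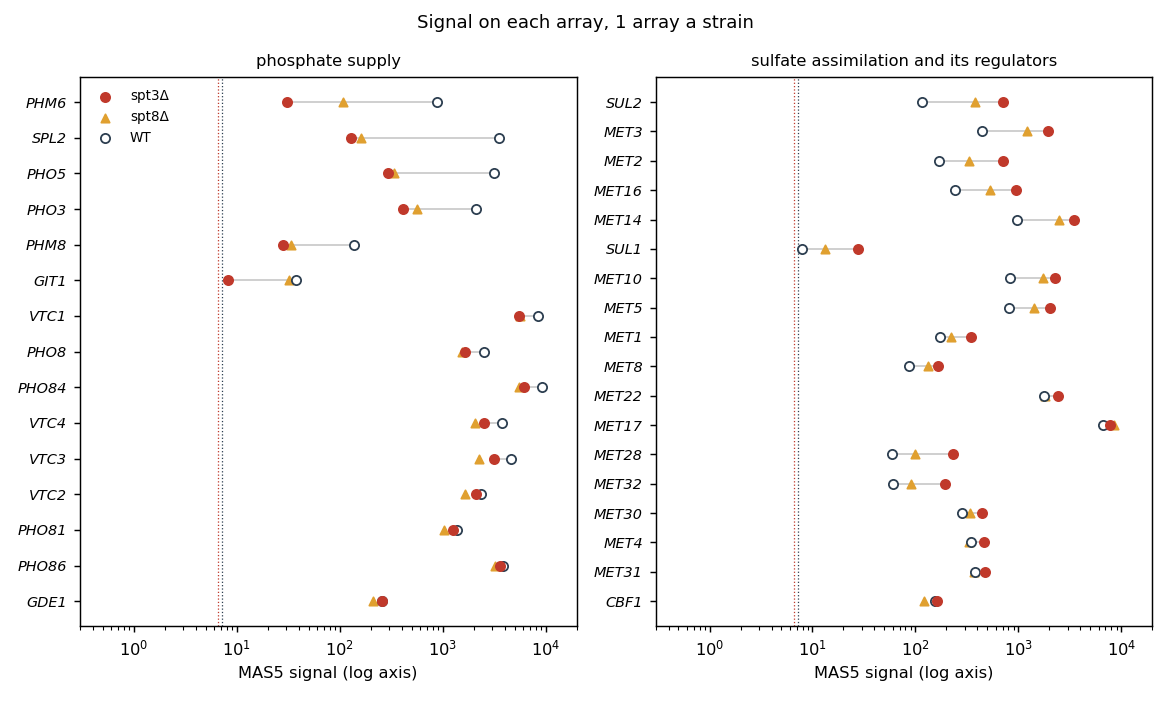
MAS5 signal (horizontal log axis) of each compared gene of phosphate supply (left) and of sulfate assimilation and its regulators (right) in *spt3Δ* (filled circle), *spt8Δ* (triangle) and WT (open circle), with 1 array per strain; dotted lines are the *spt3Δ* and WT backgrounds of 6.67 and 7.17. All 15 phosphate genes lie below WT in *spt3Δ*, and all 12 sulfate assimilation genes and the 6 regulators lie above it.

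The highest ratio above background on both arrays was that of *SER3*, a phosphoglycerate dehydrogenase of serine synthesis that is known to be repressed in rich medium by transcription of the adjacent intergenic DNA. Its signal was 6177 in *spt3Δ*, 5493 in *spt8Δ* and 337 in WT, 18.3-fold higher in *spt3Δ* than in WT. The rest of serine, glycine and one-carbon metabolism lay within the limits. *SER33*, which encodes the other phosphoglycerate dehydrogenase, had 1838 in *spt3Δ*, 1726 in *spt8Δ* and 1603 in WT. *SER1* and *SER2*, the later steps of serine synthesis, had log2 ratios of −0.29 and 0.38, and *GLY1*, the threonine aldolase that makes glycine, had −0.88. Of the 14 genes compared, *SER3* was the only one called, and the median log2 ratio was −0.29.

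The second highest ratio above background on both arrays was in vitamin B6 synthesis. *SNO1* and *SNZ1* are neighbouring genes that are transcribed divergently and encode both subunits of the enzyme that makes pyridoxal phosphate. *SNO1* had a signal of 190 in *spt3Δ*, 28.3 in *spt8Δ* and 12.7 in WT, and was 15.0-fold higher in *spt3Δ* than in WT. *SNZ1* had 818 in *spt3Δ*, 232 in *spt8Δ* and 226 in WT, and was 3.62-fold higher. The *spt8Δ* signal of *SNZ1* was close to that of WT, unlike those of *SER3* and the sulfate genes. The other 4 genes of the list had log2 ratios from −0.68 to 0.52, the lowest being *TPN1*, the plasma membrane pyridoxine transporter. The thiamine list, a related vitamin pathway, held no called gene among 13, and its lowest member *THI4*, of thiazole synthesis, had 63.5 in *spt3Δ*, 131 in *spt8Δ* and 137 in WT.

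Breakdown of aromatic amino acids also held large differences. *ARO9*, the aromatic aminotransferase induced by tryptophan, had a signal of 83.1 in *spt3Δ*, 178 in *spt8Δ* and 776 in WT, and was 9.34-fold lower in *spt3Δ*. *ARO10*, the phenylpyruvate decarboxylase that takes the next step, had 34.9 in *spt3Δ*, 64.2 in *spt8Δ* and 315 in WT, and was 9.03-fold lower. *ARO80*, their shared activator, had a log2 ratio of 0.54, and the minor pyruvate decarboxylase gene *PDC6* was 2.86-fold higher on a dim signal and lost its call with 50 added. Tryptophan is also degraded to NAD, and *BNA5*, the kynureninase of that route, had 130 in *spt3Δ*, 367 in *spt8Δ* and 905 in WT (6.98-fold lower in *spt3Δ*). It was the only called gene of 14 in NAD synthesis, where 12 lay below the median of all genes compared. The kynurenine monooxygenase gene *BNA4* had −1.15 on the log2 scale, within the limit as deposited and past it after loess, and the nicotinic acid permease gene *TNA1* had −1.11.

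Uptake of nitrogen compounds held further lower calls on dimmer signals. Of 26 genes for the use of poor nitrogen sources, 3 were called lower and none higher, against 1.87% and 0.702% over all genes compared. *UGA4*, the permease for gamma-aminobutyric acid, had 54.6 in *spt3Δ*, 120 in *spt8Δ* and 153 in WT, and was 2.80-fold lower. The allantoin permease gene *DAL4* was 3.05-fold lower on signals of 12.1 in *spt3Δ*, 21.4 in *spt8Δ* and 36.8 in WT. The allantoinase gene *DAL1* was not above background in *spt3Δ* and was at least 2.61-fold lower. Among 17 amino acid permease genes, *AGP2* (104 in *spt3Δ*, 156 in *spt8Δ* and 320 in WT) was 3.08-fold and *ALP1*, for arginine (8.03 in *spt3Δ*, 16.6 in *spt8Δ* and 25.6 in WT), 3.19-fold lower. *DAL4*, *DAL1* and *ALP1* lost their calls with 50 added to each signal. The general permease gene *GAP1* had a log2 ratio of 0.20, and the median over all 26 nitrogen genes was 0.070.

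General stress genes, most of them targets of the activators Msn2 and Msn4, held the largest number of lower calls of any list. Of 33 genes compared, 26 were below WT, and the median log2 ratio was −0.40 (−0.49 after loess). Of the 33, 8 were called lower and none higher, against 1.87% lower over all genes compared. *DDR2*, a stress-induced gene, had a signal of 47.4 in *spt3Δ*, 236 in *spt8Δ* and 662 in WT, 14.0-fold lower in *spt3Δ* than in WT. *SPI1*, a wall protein of stationary phase, had 111 in *spt3Δ*, 335 in *spt8Δ* and 675 in WT. *HSP12*, a membrane-stabilizing protein, had 157 in *spt3Δ*, 275 in *spt8Δ* and 881 in WT. In these 3 genes the *spt8Δ* signal lay between the other arrays, as it did for 68 of the 77 lower genes above background on both arrays. That count has the same limit as the one of higher genes, since the genes were picked by their *spt3Δ* and WT signals. *YGP1*, a secreted glycoprotein of nutrient limitation, had 749 in *spt3Δ*, 1995 in *spt8Δ* and 2360 in WT, with *spt8Δ* near WT. The pentose phosphate isozyme genes *GND2* and *SOL4* were 3.55-fold and 3.23-fold lower on dim signals, and *SOL4* lost its call with 50 added. *XBP1*, a stress-induced repressor, was not above background in *spt3Δ* or in *spt8Δ*, and was at least 2.09-fold lower in *spt3Δ* than in WT. *DDR48*, a DNA damage-responsive gene, was 2.51-fold lower.

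Other stress genes were not called. *CTT1*, the cytosolic catalase and a common Msn2 and Msn4 target, had 94.0 in *spt3Δ*, 87.2 in *spt8Δ* and 77.8 in WT. *TMA10* had a log2 ratio of 1.18, *RGI1* 0.079 and *ALD2*, an aldehyde dehydrogenase, −0.096. The activator genes *MSN2* and *MSN4* had −0.17 and −0.25. In the 27 heat shock genes, 1 was called lower and the median log2 ratio was 0.27 (0.35 after loess). *HSP104*, the disaggregase, had 2476 in *spt3Δ*, 2121 in *spt8Δ* and 1489 in WT, and *BTN2*, a v-SNARE binding protein with a role in sorting aggregates, had a log2 ratio of 1.18. The called gene was *HSP30*, a stress-induced membrane protein, with 104 in *spt3Δ*, 409 in *spt8Δ* and 275 in WT (2.64-fold lower in *spt3Δ*). *YRO2*, a relative of *HSP30* that was in no list, had 42.5 in *spt3Δ*, 186 in *spt8Δ* and 661 in WT, and was 15.6-fold lower, the third lowest ratio above background on both arrays. Chaperone genes straddled the median of all genes compared, with 13 below and 14 above it and a relative median of 0.10. Of the general stress genes, 27 of 33 lay below it, with a relative median of −0.57.

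Storage carbohydrate and sugar metabolism held a few lower calls, some of them of isozymes. *TDH1*, the glyceraldehyde-3-phosphate dehydrogenase isozyme of slow growth, had 1291 in *spt3Δ*, 2413 in *spt8Δ* and 4508 in WT, and was 3.49-fold lower, while *TDH3*, the main isozyme, had a log2 ratio of −0.42. *GLK1*, glucokinase, had 851 in *spt3Δ*, 1339 in *spt8Δ* and 2442 in WT (2.87-fold lower in *spt3Δ*), while *HXK2*, the main hexokinase, had −0.38. *GPH1*, glycogen phosphorylase, had 92.8 in *spt3Δ*, 98.0 in *spt8Δ* and 271 in WT (2.93-fold lower). These were the called genes that were above background on both arrays in the lists of glycolysis (2 of 24) and of trehalose and glycogen (1 of 20). Uncalled as deposited were *GPM2* of glycolysis (log2 ratio −1.24) and *TSL1* (−1.20), *GSY2* (−1.03) and *PGM2* (−0.93) of trehalose and glycogen. *TSL1* passed the limit after loess (−1.44). Of the 20 trehalose and glycogen genes, 11 were below and 9 above WT, with a median WT signal of 324. *GAC1*, a glycogen phosphatase subunit, was above background in WT only, at least 2.68-fold lower, and lost its call under loess. The glycerol gene *GPD1* had 1192 in *spt3Δ*, 1480 in *spt8Δ* and 2890 in WT (2.42-fold lower), and it too lost its call under loess. The relative median of glycolysis was −0.60 in the deposited scaling and −0.15 after loess. Since loess was fitted on all genes, these bright ones included, an offset of bright signals and one of glycolysis genes cannot be told apart.

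Glucose transport and sensing had 2 higher calls among 15 genes, against 0.702% over all genes compared. *MTH1*, a repressor of hexose transporter genes in low glucose, had 114 in *spt3Δ*, 94.6 in *spt8Δ* and 40.7 in WT (2.81-fold higher in *spt3Δ*) and lost its call with 50 added to each signal. *HXT14* was called on its ratio but was above background in *spt3Δ* only, at least 1.14-fold higher. The repressor gene *MIG3* had a log2 ratio of 1.46, inside the limit, and *HXT1* and *HXT3*, transporters of high glucose, had −1.02 and −0.79. The galactose genes, which rich glucose medium represses, held no call among 6, and *GAL10*, *GAL7* and *GAL1* had −0.97, −0.72 and −0.61 on dim signals.

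Some genes of mating were lower, in several roles. Of the 4 alpha-specific genes, all were below WT and 2 were called. *SAG1*, the alpha-agglutinin that binds cells of the opposite type, had a signal of 1109 in *spt3Δ*, 2984 in *spt8Δ* and 5826 in WT, and was 5.25-fold lower in *spt3Δ* than in WT. *MF(ALPHA)2*, a gene of the alpha-factor pheromone, had 3001 in *spt3Δ*, 6389 in *spt8Δ* and 9414 in WT (3.14-fold lower). *MF(ALPHA)1*, the main alpha-factor gene, had a log2 ratio of −0.52, and *STE3*, the receptor for a-factor, had 1859 in *spt3Δ*, 2544 in *spt8Δ* and 3727 in WT. Since the cultures were measured in bulk, fewer cells that express a gene and less of its RNA per cell cannot be told apart. The 7 a-specific genes, which alpha cells repress, were all below WT on dim signals. *AGA2* and *ASG7* of this list were called lower, at least 2.18-fold and at least 1.19-fold, on signals that were not above background in *spt3Δ*, and *AGA2* lost its call under loess.

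Pheromone response and cell fusion held 28 compared genes, of which 4 were called lower and none higher, against 1.87% lower over all genes compared. Of the 28 genes, 17 were below and 11 above WT, with a median log2 ratio of −0.17. *AGA1*, the anchor of a-agglutinin, had 293 in *spt3Δ*, 609 in *spt8Δ* and 1259 in WT (4.30-fold lower in *spt3Δ*). *FUS1*, a fusion protein, had 90.8 in *spt3Δ*, 259 in *spt8Δ* and 359 in WT (3.95-fold lower). *PRM1*, which acts in plasma membrane fusion, had 7.75 in *spt3Δ*, 21.4 in *spt8Δ* and 67.7 in WT (8.73-fold lower), and *PRM6* was above background in WT only, at least 2.88-fold lower. These 4 are effectors at the cell surface or membrane. The signalling genes lay near WT, with log2 ratios of 0.39 for *STE4* (G protein beta subunit), 0.26 for *STE11* (a kinase) and −0.36 for *STE12* (the transcription activator). *PRM7*, a pheromone-regulated gene in no list, was 9.11-fold lower, with 65.3 in *spt3Δ*, 270 in *spt8Δ* and 594 in WT.

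**Figure D4:**
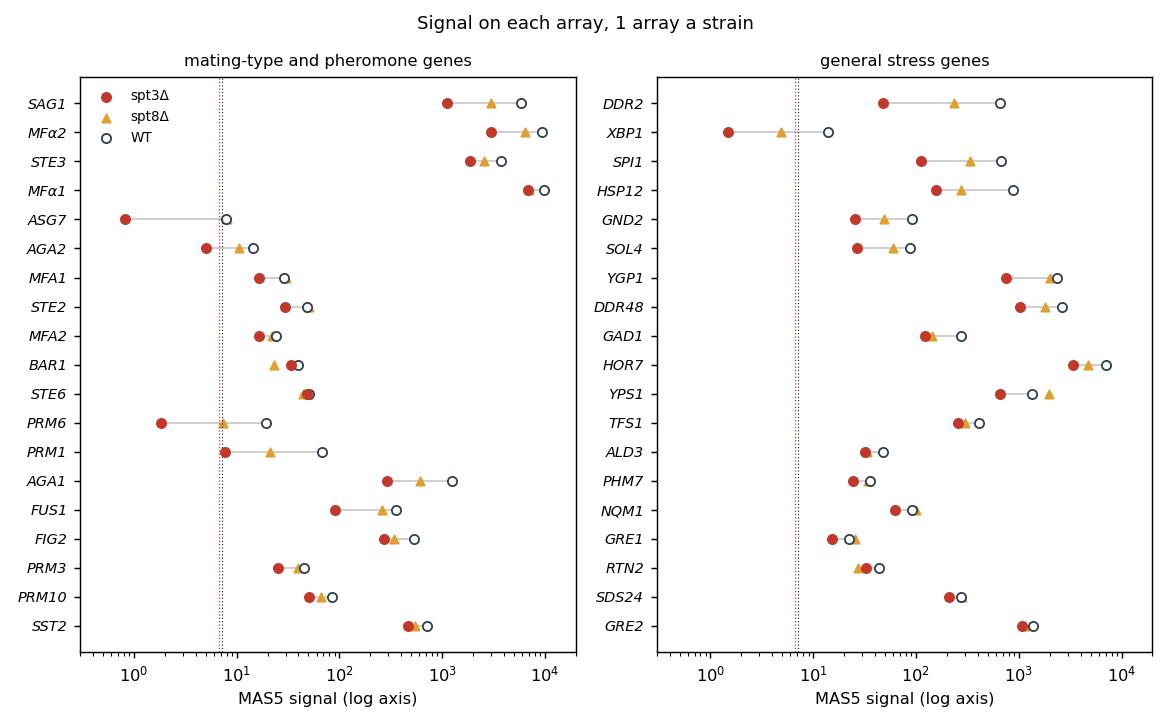
MAS5 signal (horizontal log axis) of alpha-specific, a-specific and the 8 lowest pheromone and fusion genes (left) and of the 19 lowest general stress genes (right) in *spt3Δ* (filled circle), *spt8Δ* (triangle) and WT (open circle), with 1 array per strain; dotted lines are the *spt3Δ* and WT backgrounds of 6.67 and 7.17. *SAG1*, *AGA1*, *FUS1*, *DDR2*, *SPI1* and *HSP12* are lower in *spt3Δ* than in *spt8Δ* and highest in WT, and the *spt3Δ* signals of *ASG7*, *AGA2*, *PRM6* and *XBP1* lie at or below the background lines.

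Genes of the cell wall and of daughter cell separation were mostly below WT. Daughter cell separation, the program by which daughter cells digest the septum, had a median log2 ratio of −0.97. In it 9 of 10 genes were below WT and 2 were called lower, against 1.87% over all genes compared. *DSE4*, a glucanase of the septum, had a signal of 864 in *spt3Δ*, 1267 in *spt8Δ* and 2539 in WT (2.94-fold lower in *spt3Δ*), and *PRY3*, of a family of secreted sterol-binding proteins, had 169 in *spt3Δ*, 203 in *spt8Δ* and 435 in WT (2.58-fold lower). The chitinase gene *CTS1* had 3823 in *spt3Δ*, 4703 in *spt8Δ* and 7637 in WT. On the log2 scale *AMN1*, which resets the cell cycle in daughters, had −1.21 and the wall glycoprotein gene *EGT2* −1.19, just inside the limit. *DSE1* was the exception, at 0.13. Of 31 genes of wall proteins and glucan synthesis, 28 were below WT, with a median of −0.39 (−0.25 after loess). Both called genes of that list, the glucanase gene *EXG1* (2.61-fold lower) and the transglycosidase gene *UTR2* (2.47-fold lower), lost their calls under loess.

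Wall genes of anaerobic growth were also lower. *TIR1*, a mannoprotein of cold shock and hypoxia, had 352 in *spt3Δ*, 1363 in *spt8Δ* and 2618 in WT (7.45-fold lower in *spt3Δ*), and *TIR3* had 147 in *spt3Δ*, 182 in *spt8Δ* and 955 in WT (6.48-fold lower). *TIR2* and *TIR4*, of the same family, had log2 ratios of −0.52 and −0.45. Of the other hypoxic genes, *ANB1*, a translation factor gene, had −1.03 and *ROX1*, the repressor of hypoxic genes, had 0.71. *WSC4*, a sensor of the cell wall integrity pathway, had 23.1 in *spt3Δ*, 13.1 in *spt8Δ* and 230 in WT (9.97-fold lower in *spt3Δ*), and was dimmer in *spt8Δ* than in *spt3Δ*. It was the 1 called gene of 17 in that pathway, and the related sensor genes *WSC2* and *WSC3* had −0.033 and −0.43. *NCA3*, of a family of wall-associated proteins, had 18.4 in *spt3Δ*, 92.7 in *spt8Δ* and 178 in WT (9.67-fold lower).

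Iron uptake genes were below WT for 16 of 21, with a median log2 ratio of −0.40 and 1 call. *FIT2*, a wall mannoprotein that helps to retain siderophore iron, had 980 in *spt3Δ*, 4106 in *spt8Δ* and 3487 in WT, and was 3.56-fold lower in *spt3Δ*, with *spt8Δ* above WT. *FET3*, the ferroxidase of high-affinity uptake, had −1.11, and *FRE1*, the main ferric reductase, had −1.08. *FRE7*, a ferric or cupric reductase gene that responds to copper and was in no list, had 30.3 in *spt3Δ*, 115 in *spt8Δ* and 289 in WT (9.56-fold lower). The 15 genes of zinc and copper uptake held no call, with a median of −0.26. Multidrug resistance genes had 3 lower calls among 19, against 1.87% over all genes compared, and a median of −0.63. The polyamine exporter genes *TPO1* and *TPO2* were 2.57-fold and 3.46-fold lower, *TPO2* on probe sets that include a shared one, and the ABC transporter gene *PDR15* was 2.64-fold lower, with 200 in *spt3Δ*, 292 in *spt8Δ* and 528 in WT. *PDR5*, the main drug pump, had a log2 ratio of −0.63 on a bright signal, and its activator gene *PDR1* had 0.40.

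Meiosis and sporulation genes, which haploid cells in rich medium hardly express, had calls in both directions on dim signals. Of 35 genes compared, 3 were called lower and 3 higher, against 1.87% and 0.702% over all genes compared. The median log2 ratio was 0.033. *SPO22*, a meiosis-specific gene of crossover formation, had 68.6 in *spt3Δ*, 37.2 in *spt8Δ* and 14.1 in WT (4.88-fold higher in *spt3Δ*), and *SPS4*, of sporulation, had 155 in *spt3Δ*, 81.5 in *spt8Δ* and 36.2 in WT (4.29-fold higher). *SPO11*, the nuclease of meiotic recombination, was 2.62-fold lower on 13.4 in *spt3Δ*, 20.0 in *spt8Δ* and 35.0 in WT, and *NDJ1*, a telomere protein of meiosis, had 15.2 in *spt3Δ*, 81.8 in *spt8Δ* and 36.7 in WT. *SPS2*, the third higher gene, was above background in *spt3Δ* only, and *REC8*, a meiotic cohesin subunit and the third lower gene, in WT only. Their bounds, at least 1.25-fold higher and at least 1.31-fold lower, lie inside the limits. With 50 added to each signal, the calls of this list other than that of *SPS4* were lost. Under loess, *SPO11* and *NDJ1* also lost theirs. *IME1*, the master activator of meiosis, had a log2 ratio of 0.80, within the limit.

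Most genes of SAGA and of the basal transcription machinery were above WT but within the limits. Over all genes compared, 3216 of 5129 were above WT. Apart from *SPT3*, none of the 20 genes of SAGA and the related SLIK complex was called, and 18 of the 20 were above WT. *SPT8* had 514 in *spt3Δ* and 346 in WT, and was not above background in *spt8Δ* (5.20). *SPT7* and *SPT20*, which hold the complex together, had log2 ratios of 0.68 and 0.69. The acetyltransferase module genes *GCN5*, *ADA2*, *NGG1* and *SGF29* had 0.69, 0.030, 0.93 and 0.30, and the deubiquitinase module genes *UBP8*, *SGF11*, *SGF73* and *SUS1* had −0.24, 0.068, 0.49 and 0.71. *TRA1*, which binds activators, had 0.17, and *HFI1*, an adaptor, 0.67. The shared TAF genes *TAF5*, *TAF6*, *TAF9*, *TAF10* and *TAF12* ranged between 0.17 and 0.72, and *RTG2*, of SLIK, had 0.18. The median of the list was 0.53, or 0.36 relative to all genes compared, and 0.22 relative to them after loess.

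TBP and basal factors had 0 calls among 23, with 19 above WT, and a median log2 ratio of 0.61. The bromodomain factor genes *BDF1* and *BDF2*, whose products associate with TFIID, were the lowest, with −1.22 and −0.92, and *BDF1* passed the limit after loess, with 513 in *spt3Δ*, 416 in *spt8Δ* and 1198 in WT. *MOT1*, which removes TBP from DNA, had −0.64, and *TAF7* and *TAF8*, of TFIID, had 1.39 and 1.14. Mediator (24 genes, median 0.44), chromatin remodellers and histone chaperones (35 genes, 0.48) and silencing factors (18 genes, 0.30) also had 0 calls. In the last of these, 15 of the 18 genes were above WT, as were 3216 of all 5129 genes compared. Relative to the median of all genes compared, 7 silencing genes were below and 11 above. The relative median of that list was 0.13, and 0.032 after loess. The lowest was *SIR2*, the histone deacetylase of silent chromatin, with 198 in *spt3Δ*, 309 in *spt8Δ* and 362 in WT, a log2 ratio of −0.87. The highest was *SIR4*, with 499 in *spt3Δ*, 377 in *spt8Δ* and 299 in WT, a log2 ratio of 0.74.

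The large lists of protein synthesis and breakdown held no called gene, and their offsets depended on the scaling to different extents. The 127 cytosolic ribosomal protein genes were the brightest list, with a median signal of 8281 in *spt3Δ* and 10257 in WT, and a median log2 ratio of −0.33. Of these, 122 lay below the median of all genes compared, but after loess the median of the list was 0.0099, next to 0.017 for all genes compared. *RPS19A* was the highest, with 7533 in *spt3Δ*, 5385 in *spt8Δ* and 4350 in WT. The ribosome assembly list (90 genes) had a median of 0.50, or 0.36 after loess, with *NOP16* at 1.24 and *NOP14* at 1.13. The 32 proteasome genes, which include the activator gene *RPN4*, were all above WT, with a median of 0.42, and 0.43 after loess. *RPN4* had 1743 in *spt3Δ*, 1042 in *spt8Δ* and 899 in WT. Mitochondrial ribosomal proteins (70 genes) had 0.41 and splicing factors (52 genes) had 0.43, against 0.19 and 0.25 after loess. The ribosomal protein offset was thus absent after loess, and that of the proteasome was not. Loess was fitted on all genes, these bright ones included. An offset of bright signals and one of ribosomal protein genes therefore cannot be told apart.

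**Figure D5:**
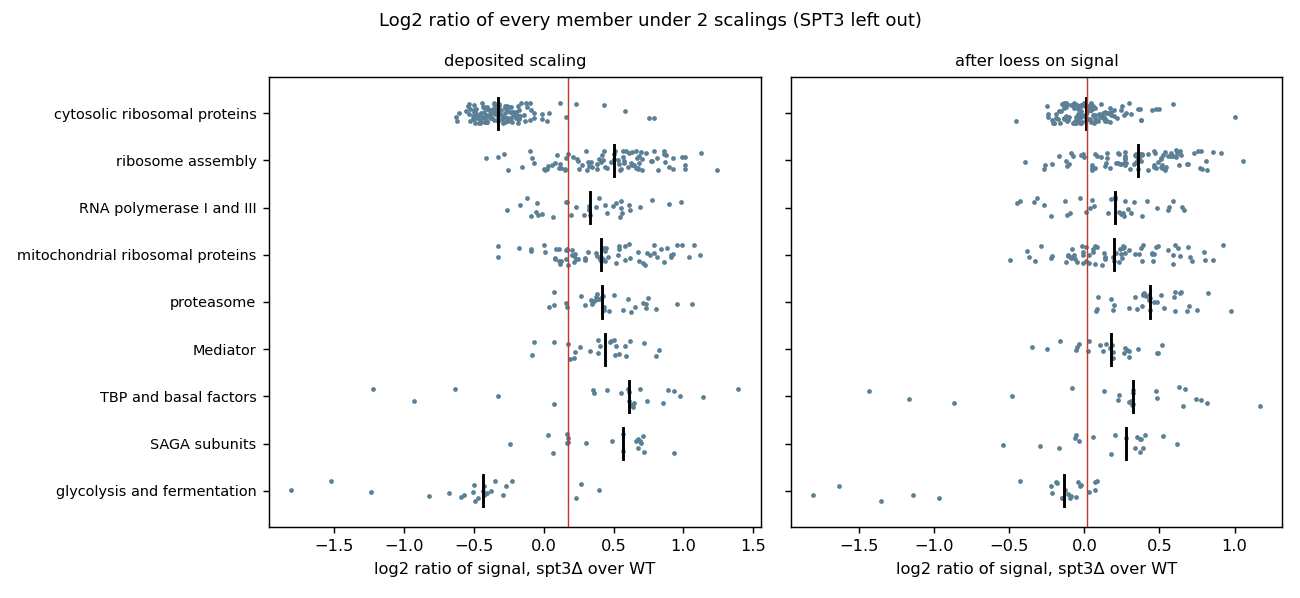
Log2 ratio of *spt3Δ* over WT of every compared member of 9 lists (points) with the list median (black bar) and the median of all 5129 genes compared (red line), in the deposited scaling (left) and after loess (right), with 1 array per strain. Ribosomal protein genes lie around −0.33 on the left and around 0.0099 on the right, while proteasome genes lie around 0.42 and 0.43.

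Of the called genes in no list, *SOM1*, of the mitochondrial inner membrane peptidase, was 11.9-fold lower, with 14.1 in *spt3Δ*, 107 in *spt8Δ* and 167 in WT. *STP4*, a zinc finger protein gene, was 4.13-fold lower, with 107 in *spt3Δ*, 236 in *spt8Δ* and 442 in WT. The flavohemoglobin gene *YHB1*, which detoxifies nitric oxide, was bright, with 2822 in *spt3Δ*, 2844 in *spt8Δ* and 7771 in WT (2.75-fold lower in *spt3Δ*). It lost its call under loess. The ceramidase gene *YPC1* (3.36-fold), the steryl ester hydrolase gene *YEH1* (2.71-fold) and the phospholipase B gene *PLB2* (2.70-fold) were also lower. The lists of ergosterol (25 genes), fatty acids (20 genes) and inositol and phospholipids (18 genes) held 0 calls. For lists of this size that is near the shares over all genes compared, 1.87% lower and 0.702% higher. The vacuolar proteinase inhibitor gene *PBI2* was 3.23-fold and the aspartyl protease gene *YPS3* 3.43-fold lower, the last with 74.2 in *spt3Δ*, 310 in *spt8Δ* and 255 in WT. Beside *TPO2*, the lower genes with shared probe sets were *YGR109W-A* (5.76-fold), *YAR010C* (3.14-fold), *YBL005W-A* (2.88-fold) and *YBL100W-A* (2.77-fold), which have no gene name in the tables used. *YAR010C* was the brightest of them, with 1482 in *spt3Δ*, 2439 in *spt8Δ* and 4648 in WT.

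Among higher genes in no list, *PEX19*, of peroxisome membrane assembly, had 1354 in *spt3Δ*, 740 in *spt8Δ* and 393 in WT (3.44-fold higher in *spt3Δ*). *TPM2*, the minor tropomyosin, had 1432 in *spt3Δ*, 876 in *spt8Δ* and 453 in WT (3.16-fold higher). *GRX8*, a glutaredoxin, had 852 in *spt3Δ*, 613 in *spt8Δ* and 286 in WT (2.98-fold higher), and *CUS1*, a splicing factor gene, had 413 in *spt3Δ*, 155 in *spt8Δ* and 134 in WT (3.09-fold higher). The 2 kinetochore genes *CTF13* and *SPC24* were 3.40-fold and 2.97-fold higher on dim signals. *YDR034C-A*, without a gene name, completed the 10 highest ratios above background on both arrays, at 3.71-fold. The largest bounds among genes above background on 1 array were at least 3.86-fold lower for *YPR015C* and at least 2.77-fold lower for *YFL012W*, beside *SPT3*, *PRM6* and *GAC1*. In the other direction they were at least 2.34-fold higher for *YKR041W*, 2.13-fold for *YOL019W-A*, 2.04-fold for the sporulation gene *SPO19*, 1.95-fold for *YNL042W-B* and 1.92-fold for *YER085C*.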

How the data were processed

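Signals of *spt3Δ*, *spt8Δ* and WT were read from 3 arrays, 1 per strain. The deposited intensity values are background-corrected MAS5 signals per probe set on a linear scale, made by the authors with default settings and scaled to trimmed means (2% off each end) of 500.3, 500.3 and 500.4. The submitters' processing notes also name Affymetrix Expression Console, and the version of either tool is not given in the sources used here. Of 10928 probe sets, 5498 named an *S. cerevisiae* gene, 1746 named *S. pombe*, 3683 were unnamed and 1 named several genes. Symbols (12 updated) and gene order came from the R64 gene table. Where a gene had several probe sets (47 genes), the mean of their log2 values was taken; the median range of their ratios was 0.21. Of the genes compared, 73 had a shared probe set. Thresholds used the study's multiple of 2 SD, with limits computed here. Genes named were *SPT3*, the 10 lowest and 10 highest ratios, 5 bounds each way, up to 6 members per list, SAGA subunits and strain markers; other called or listed genes were picked after their values were seen. The members and lists were chosen with earlier results of these data known. Alternatives were loess (span 0.3), quantile normalization, 50 added, 2-fold or 2 robust SD as threshold, the 99th percentile as background, both arrays above background, no shared probe sets, and 5 or 12 outermost genes. Promoter motifs were not analysed here. Python 3.11.15, pandas 2.3.3 and NumPy 2.4.6 were used, and the steps were tested on simulated data. Some lists matched by name patterns were corrected for genes of other function after values had been seen. The number of arrays limits the precision.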

Additional observations from a re-analysis of the deposited data

Results flagged for a closer look

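Signals also appeared in probe sets that the comparison did not use. Of the 3683 probe sets without a gene name, 397 were above background in both *spt3Δ* and WT, and by the same limits 9 of them were lower and 3 higher in *spt3Δ*. The lowest had a signal of 18.5 in *spt3Δ* and 248 in WT (13.4-fold lower) and the highest had 44.8 in *spt3Δ* and 9.40 in WT (4.77-fold higher). The transcripts they measure were not identified here. With 1 array per strain, no sample was examined as an outlier.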

How the results depend on the processing

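The 96 lower and 36 higher calls became 159 and 203 with a threshold of 2-fold, and 188 and 77 with 2 robust SD. Under the other settings the counts ranged from 77 to 121 lower and from 27 to 52 higher. Of the 96 lower genes, 82 remained called after loess, 83 after quantile normalization and 66 with 50 added to each signal; of the 36 higher genes, 36, 36 and 19 remained. No called gene covered by the naming rule changed sign under these scalings. Among the lists, the median of branched-chain amino acid genes relative to all genes compared was −0.30 and turned to 0.017 after loess. Relative medians of 9 lists changed sign in at least 1 scaling, namely those of DNA replication, branched-chain amino acids, hexose transport and sensing, histidine and aromatic amino acids, histones (−0.19, and 0.23 after loess), meiosis and sporulation, methionine and SAM, oxidative defence, and the respiratory chain and ATP synthase. The cause was not tested beyond the course of the ratios with signal. No paired analysis was possible because each strain had 1 array, and no array could be left out. Dim genes carry most of the uncertainty, and a signal below background gives a bound only.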
